A study of Mus musculus with 36 samples.

Results

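The genes described are 10 AP-1 and immediate early genes, 7 of which encode subunits or partners of the transcription factor AP-1: the Fos family genes Fos, Fosb and Fosl2, the Jun family genes Jun, Junb and Jund, the ATF family gene Atf3, and, outside AP-1, Egr1, Ier2 and Ier3. They were taken by symbol from a table of 27562 genes, and each symbol was found once. They were measured by RNA-seq in cells sorted from the lungs of chimeric mice. Male C57BL/6J hosts (CD45.2) had been irradiated with the chest shielded and given busulfan, and then received marrow from CD45.1 donors, strain B6.SJL-Ptprca Pepcb/BoyJ, so every group shares this preparation. The mice then breathed filtered air (FA) or concentrated fine particulate matter (PM2.5) for 4 or 32 weeks. Sorting took alveolar macrophages (AΦ) by CD64, high CD11c and low CD11b, and monocytes by high CD11b and low CD64 without Ly6G or MHC II. Both were split by CD45 allele into host cells and donor cells.

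CD45.2 AΦ are called tissue-resident (TR-AΦ) and CD45.1 AΦ bone-marrow-derived (BM-AΦ). The labels number the macrophages 1 and 2, and the study's supplement gives 1 as CD45.1 and 2 as CD45.2; the monocyte labels were read the same way, which the sources do not spell out. CD45.2 monocytes are cells that the host kept after irradiation or regained since, which limits them as a model of circulating monocytes. At 4 weeks CD45.2 cells alone were sequenced, and at 32 weeks both origins, which gave 12 groups of 3 libraries, 18 of AΦ and 18 of monocytes. The study chose 3 mice for each exposure and time, so sorted groups of the same exposure and time can share mice, but which libraries came from one mouse is not given in the sources used here, and tests between cell types and between origins treated libraries as independent. Time points differ in the age of the mice and in harvest as well as in the length of exposure, and these cannot be told apart.

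Immediate early genes are transcribed within minutes of a stimulus, without new protein synthesis, and most of their transcripts are short-lived. Fos and Jun family proteins pair through leucine zippers to form AP-1, which binds TGACTCA and related sites at genes of inflammation, proliferation and tissue remodelling. Egr1 is a zinc finger factor induced through serum response factor and its ternary complex partners, and Ier2 and Ier3 are small response proteins, of which Ier3 is linked to cell survival. In macrophages these genes respond to microbial products, growth factors and stress, and also to the handling of cells during tissue dissociation.

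Part of the control of these genes lies just before the transcription start, so the 100 bases before the RefSeq start are shown for the 3 Fos genes and Jun (GRCm38.p6, 5′ to 3′ on the gene's strand). The RefSeq start of Fosl2 lies inside the gene as the files place it, downstream of the start given there. Capitals mark TGACG, the core of the CRE bound by CREB and ATF factors, TGACATCA, a variant of the AP-1 and ATF site, GCGGGGGCG, the EGR site, and TATAAA, the TATA box.
Fos, chr12:85473790-85473889, plus strand: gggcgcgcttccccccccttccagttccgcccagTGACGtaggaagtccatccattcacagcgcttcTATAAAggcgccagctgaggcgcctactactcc
Fosb, chr7:19310046-19310145, minus strand: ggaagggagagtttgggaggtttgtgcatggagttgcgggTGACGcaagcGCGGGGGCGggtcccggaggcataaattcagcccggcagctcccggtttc
Fosl2, chr5:32136372-32136471, plus strand: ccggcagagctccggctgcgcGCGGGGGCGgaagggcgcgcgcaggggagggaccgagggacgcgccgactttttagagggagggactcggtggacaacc
Jun, chr4:95052223-95052322, minus strand: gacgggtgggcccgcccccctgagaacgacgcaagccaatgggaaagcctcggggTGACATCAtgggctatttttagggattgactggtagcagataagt

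The search covered both strands of a 300-base window, from 250 bases before to 50 after the start, in the 8 members that the RefSeq promoter table holds (Egr1 and Ier2 were not matched). TGACG was found in 4 of the 8 (Fos, Fosb, Junb and Atf3) and in 20.8% of 32851 promoters. GCGGGGGCG was found in 2 (Fosb and Fosl2) and in 2.91% of promoters, TGACATCA in Jun and in 3.62%, and TATAAA in 2 (Fos and Junb) and in 13.6%. The TATAAA of Fos lay at bases −33 to −28. That of Junb lay at bases 1 to 6, on the start itself and not at the place of a TATA box. None of the 8 windows held TGACGTCA (1.79% of promoters), TGACTCA or TGAGTCA (5.2%), or a CArG box, the site of serum response factor (1.63%). These are matches of letters in one window and say nothing of binding.

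In mm10 the files place Fos (ENSMUSG00000021250.13) at chr12:85473890-85477273, Fosb (ENSMUSG00000003545.3) at chr7:19302696-19310051 and Fosl2 (ENSMUSG00000029135.10) at chr5:32135801-32157842. Jun (ENSMUSG00000052684.4) lies at chr4:95049034-95052222 and overlaps the antisense gene Junos, Junb (ENSMUSG00000052837.6) lies at chr8:84976910-84978718, and Jund (ENSMUSG00000071076.6) at chr8:70698949-70700616 overlaps the antisense gene Gm11175. Atf3 (ENSMUSG00000026628.13) spans chr1:191170296-191218039 and holds the small RNA gene Gm24748. Ier2 (ENSMUSG00000053560.4) lies at chr8:84661331-84662852 and Ier3 (ENSMUSG00000003541.6) at chr17:35821684-35822923. The library kit keeps strand, but whether strand was used in counting is not given in the sources used here, so reads of Jun and Junos, or of Jund and Gm11175, may not be separated.

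Levels are FPKM, fragments scaled to transcript length and to the number of mapped fragments, so they can be compared between genes. All 10 members had a mean of at least 1 FPKM, the minimum for testing, in both the 18 AΦ and the 18 monocyte libraries. Counts were not analysed here. The study states a general number of reads for its sequencing but no depth for each library, so the depth behind each value is unknown. Summed FPKM per library ran from 1839577 to 3339020, with a median of 2344709. The 2 sorted types differed in their markers. The summed level of 14 AΦ markers was 7013 to 14660 FPKM in AΦ and 301 to 1757 in monocytes. That of 14 monocyte markers was 140 to 666 in AΦ and 1863 to 5452 in monocytes. Monocyte libraries also held markers of interstitial macrophages. The sum of 8 was 323 to 739 FPKM in CD45.2 monocytes at 4 weeks and 1254 to 3870 at 32 weeks. It was 664 to 1394 in CD45.1 monocytes and 25.6 to 670 over all AΦ.

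Every member was abundant in every library. In TR-AΦ at 4 weeks the order of levels, as the mean ± SD of the 6 libraries, began with Egr1 at 815 ± 129 FPKM, whose libraries (666 to 986) lay above those of Junb (427 to 653) and overlapped those of Jun (455 to 822). Junb (586 ± 83.8), Jun (568 ± 145), Fos (427 ± 51.2), Ier2 (383 ± 68.7) and Jund (368 ± 73.4) followed, each overlapping its neighbour in this order. Fosb (248 ± 32.2), Fosl2 (230 ± 26.4), Atf3 (113 ± 48.7) and Ier3 (89.8 ± 22.9) were lowest. At 32 weeks Fos led with 624 ± 228 FPKM, before Junb (395 ± 84.4), Jund (373 ± 216), Jun (268 ± 171), Fosb (264 ± 97.9) and Fosl2 (163 ± 23.2). Egr1 had moved to seventh place with 133 ± 69.8 FPKM, above Ier2 (116 ± 19.1), Atf3 (107 ± 38.6) and Ier3 (63.0 ± 30.7).

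**Figure D1:**
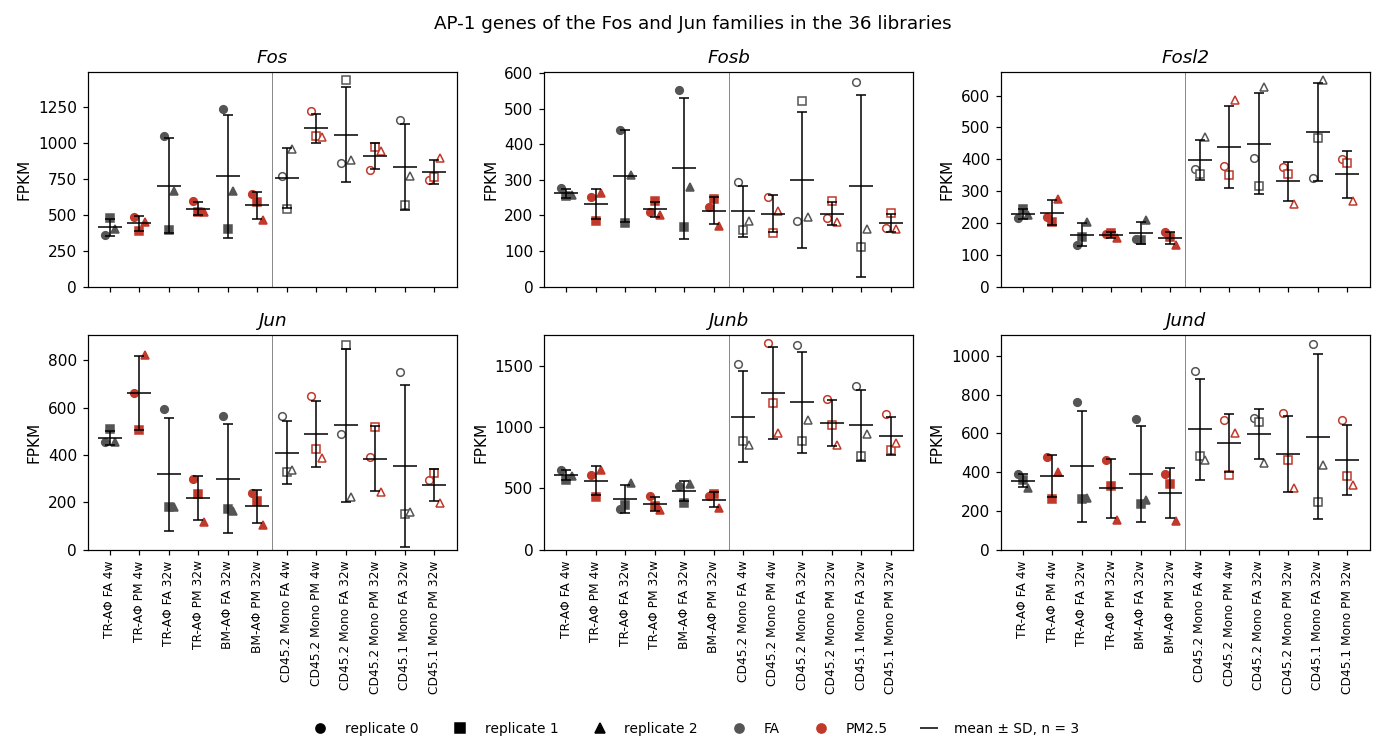
Levels of the Fos and Jun family genes in FPKM in each library (y axis) of the 12 groups (x axis), with grey for FA, red for PM2.5, filled symbols for AΦ, open symbols for monocytes, a marker shape for each replicate number, and bars for the mean ± SD of 3 libraries. Junb lies between 323 and 653 FPKM in the AΦ libraries and between 768 and 1687 in the monocyte libraries, and Jun runs from 165 to 595 FPKM among the 32-week FA libraries of AΦ.

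**Figure D2:**
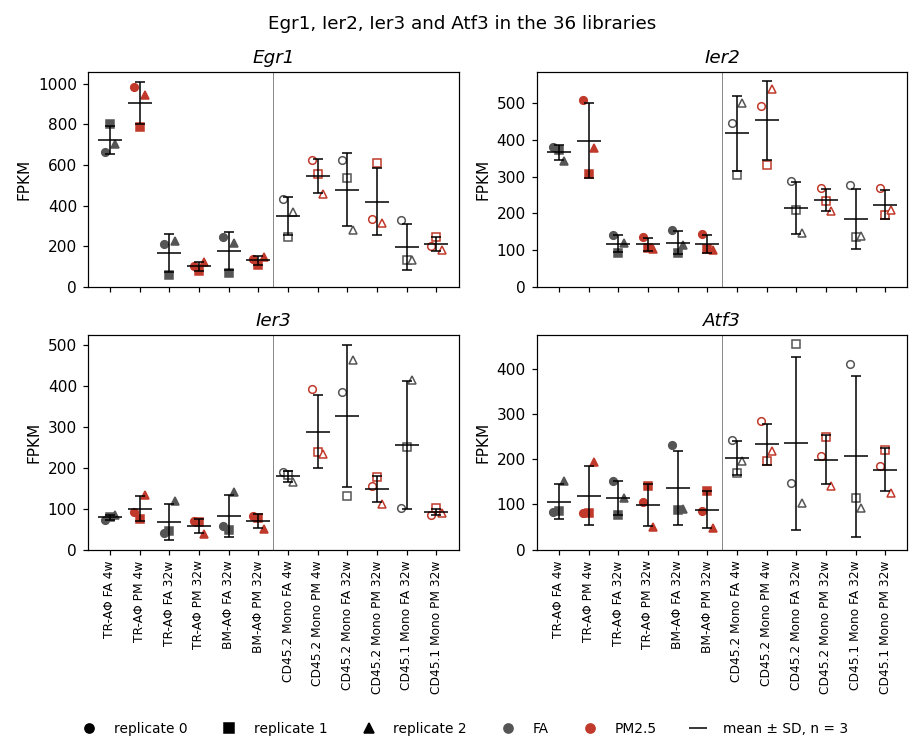
Levels of Egr1, Ier2, Ier3 and Atf3 in FPKM per library in the same 12 groups and with the same symbols. The 6 TR-AΦ libraries of 4 weeks lie between 666 and 986 FPKM for Egr1, and the 12 AΦ libraries of 32 weeks between 59.7 and 243.

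The first comparison asks what differed between TR-AΦ of 32 and of 4 weeks within each exposure. Egr1 and Ier2 were lower at 32 weeks under both FA and PM2.5, and none of the 7 AP-1 genes passed the test. In FA mice Egr1 stood at 666, 802 and 701 FPKM at 4 weeks and at 213, 59.7 and 225 at 32 weeks. In PM2.5 mice it stood at 986, 787 and 946 FPKM at 4 weeks and at 101, 78.4 and 119 at 32 weeks. In both exposures every 4-week library was far above every 32-week library. On the log2(FPKM + 1) scale Egr1 was lower by 5.05-fold in FA mice (difference −2.34, SE 0.48, adjusted p = 0.0361, limma) and by 9.12-fold in PM2.5 mice (−3.19, SE 0.48, adjusted p = 0.00436, limma).

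Ier2, a nuclear response protein, had a smaller spread between libraries. Its FA libraries held 382, 374 and 343 FPKM at 4 weeks against 140, 92.7 and 118 at 32 weeks. Its PM2.5 libraries held 510, 307 and 378 FPKM against 137, 104 and 104. The 4-week and 32-week ranges did not overlap. Ier2 fell 3.16-fold in FA mice (−1.66, SE 0.23, adjusted p = 0.00435, limma) and 3.40-fold in PM2.5 mice (−1.77, SE 0.23, adjusted p = 0.00153, limma). The count is 2 of 10 members lower in each exposure, where 0.632% of 12665 genes were called lower in FA mice and 0.782% in PM2.5 mice. In an exact two-sided permutation test of 3 against 3 libraries each of these 4 differences had p = 0.1, the smallest that this size allows.

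The FA call of Egr1 was the weakest of the 4. It was lost in a fit of only the groups compared (adjusted p = 0.289, limma), without a filter (0.0592), with libraries rescaled to equal totals (0.0524) and when each of 5 of the 6 libraries was left out (0.0534 to 0.151), and was kept without FA 32-week replicate 2 (0.0364). The difference itself stayed between −2.67 and −1.72. The PM2.5 call of Egr1 held under every alternative run, and both calls of Ier2 were lost in a fit of only the groups compared (adjusted p = 0.0651 in FA and 0.0937 in PM2.5 mice, limma). Other material in the sorted cells also differed between the time points in TR-AΦ: the summed level of 13 heat shock chaperone genes was 1289 to 3665 FPKM at 4 weeks and 779 to 1463 at 32 weeks, that of 14 monocyte markers 246 to 666 and 140 to 413, and that of 8 interstitial macrophage markers 46.9 to 670 and 25.6 to 79.6. No gene of these 3 lists was called. Their part in the result was not tested. PM2.5 4-week replicate 2 held the highest heat shock sum (3665) and the highest interstitial sum (670) of these libraries, and without it Egr1 was at −3.15 (adjusted p = 0.0215, limma) and Ier2 at −1.79 (adjusted p = 0.00678, limma). In sorted bulk samples fewer cells of a type and less RNA per cell cannot be told apart.

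The AP-1 genes of TR-AΦ gave the following values. Jun held 455, 508 and 455 FPKM at 4 weeks and 595, 181 and 181 at 32 weeks in FA mice, so 1 library of 3 at 32 weeks was above all of 4 weeks (−0.81, SE 0.54, adjusted p = 0.583, limma). In PM2.5 mice Jun held 661, 508 and 822 FPKM against 300, 234 and 117, without overlap, and did not pass the test (−1.68, SE 0.54, adjusted p = 0.156, limma). Fosl2 and Junb had differences of −0.50 and −0.57 in FA mice and −0.50 and −0.58 in PM2.5 mice, with adjusted p between 0.211 and 0.31. Fos had positive differences, 0.66 and 0.31, with an SE of 0.36. Fosb, Jund, Atf3 and Ier3 lay between −0.79 and 0.15. The median of the 10 members was −0.45 in FA and −0.54 in PM2.5 mice, against 0.01 and 0.03 over all genes tested. The fall of Egr1 in PM2.5 mice was not shown to differ from that in FA mice (difference of the differences −0.85, SE 0.68, adjusted p = 1, limma). None of the 10 passed that test, with 0.0079% of all genes called, and at an unadjusted p under 0.05 there were 380 genes and none of the members.

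**Figure D3:**
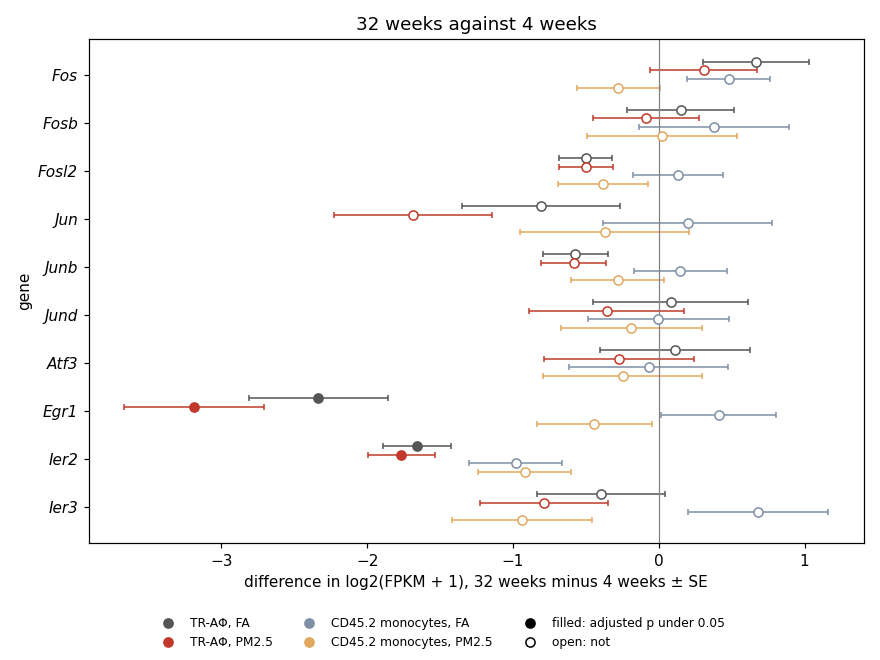
Difference in log2(FPKM + 1) between 32 and 4 weeks (x axis, 32 minus 4 weeks, ± SE) for each member (y axis) in TR-AΦ and in CD45.2 monocytes under FA and PM2.5, with filled symbols for an adjusted p under 0.05. Egr1 and Ier2 in TR-AΦ are the filled symbols, from −3.19 to −1.66, and Egr1 in monocytes lies at 0.41 and −0.44.

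Other immediate early genes moved in TR-AΦ too. Of 28 tested in a list of early and feedback genes, 6 fell with time and none rose in FA mice, and in PM2.5 mice the counts were also 6 and 0. Over all 12665 genes 0.632% were called lower in FA mice and 0.782% in PM2.5 mice. The lists were chosen with earlier results of these data known, so their counts are not independent support. Those with the smallest adjusted p were feedback genes of NF-κB signalling and of the stress response. Nfkbia, which encodes IκBα, was at −1.54 in FA and −2.12 in PM2.5 mice, Tnfaip3, which encodes A20, at −2.20 and −2.67, Nfkbiz, which encodes IκBζ, at −2.95 and −3.60, and Ppp1r15a, a phosphatase subunit that restores translation, at −2.0 and −2.17. The list's median was −0.76 and −0.64. Of 16 tested genes known as AP-1 targets in myeloid cells, 4 fell and none rose in each exposure: the cytokine gene Tnf (−2.99 and −3.15), the haem oxygenase gene Hmox1 (−1.60 and −1.73), the growth factor gene Areg (−2.57 and −2.26) and the chemokine gene Cxcl2 (−2.28 and −2.73). None of 14 other AP-1 family genes and none of 21 upstream kinases and factors passed the test in either exposure. Of 12 heat shock genes tested none was called, and all 12 had negative differences in both exposures, with medians of −0.48 and −1.16.

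CD45.2 monocytes showed no member called between the time points. Egr1 held 434, 247 and 367 FPKM at 4 weeks and 624, 534 and 278 at 32 weeks in FA mice (0.41, SE 0.39). In PM2.5 mice it held 626, 553 and 458 FPKM against 333, 608 and 312 (−0.44, SE 0.39). In both exposures the libraries of the 2 time points overlapped. Ier2 came closest to the threshold: it held 447, 305 and 502 FPKM at 4 weeks against 288, 208 and 148 in FA mice, and 493, 332 and 538 against 269, 232 and 207 in PM2.5 mice. These ranges did not overlap within either exposure, and the differences were −0.98 (SE 0.32, adjusted p = 0.082, limma) and −0.92 (SE 0.32, adjusted p = 0.147, limma). None of 10 members was called where 7.21% of 12856 genes were called in FA mice and 2.42% in PM2.5 mice, and at an unadjusted p under 0.05 there were 2677 and 2072 genes, with Ier2 the 1 member in each. In the same libraries 3 of 14 other AP-1 family genes were lower and 2 higher in FA mice, and 3 lower and 0 higher in PM2.5 mice. Atf4, a bZIP factor of the stress response, and Fosl1, another Fos family gene, were called lower in both exposures (Atf4 −0.99 and −0.90, Fosl1 −2.41 and −2.30), and Maf was called higher in FA mice (1.91). The list of early and feedback genes had 7 of 30 lower and 2 higher in FA and 6 lower and 1 higher in PM2.5 mice.

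The difference between cell types in what changed with time was tested directly, as the change from 4 to 32 weeks in TR-AΦ minus that in CD45.2 monocytes, averaged over exposures. Egr1 was the member that passed: the change in TR-AΦ minus that in monocytes was −2.75 on the log2 scale (SE 0.45, adjusted p = 0.00026, limma), and it was called under every alternative run, at −3.0 to −2.44 with adjusted p from 0.000133 to 0.000848. Ier2 had −0.76 (SE 0.28, adjusted p = 0.103, limma) and passed without CD45.2 monocyte FA 32-week replicate 2 (−0.88, adjusted p = 0.0466), and the others lay between −1.16 and 0.38. The count is 1 of 10 members called lower, where 4.35% of 13307 genes were. Marker levels of the CD45.2 monocytes also differed between the time points: the summed level of 14 monocyte markers was 4102 to 5452 FPKM at 4 weeks and 1863 to 4260 at 32 weeks, with 4 called lower in FA mice. The summed level of 8 interstitial macrophage markers was 323 to 739 FPKM at 4 weeks and 1254 to 3870 at 32 weeks, and Cd163 (5.18), Lyve1 (4.02) and Folr2 (3.33) were among those called higher at 32 weeks in FA mice. The sum of 9 neutrophil markers was 24.6 to 1050 FPKM at 4 weeks, with the highest value in PM2.5 replicate 2, and 9.99 to 40.7 at 32 weeks. Their part in the Egr1 difference, and in the other changes of monocytes with time such as that of Maf, was not tested.

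AΦ were compared with monocytes of the same origin and time. At 4 weeks TR-AΦ were lower for Fos, Fosl2, Junb, Atf3 and Ier3 and higher for Egr1. At 32 weeks TR-AΦ were lower for 7 members, the same 5 together with Egr1 and Ier2, and BM-AΦ were lower than CD45.1 monocytes for Fosl2, Junb, Ier2 and Ier3. These counts of 5 lower and 1 higher, 7 lower and 4 lower stand beside shares of all 13307 genes of 25.5% lower and 22.6% higher, 23.7% lower and 23.8% lower. Markers of the 2 cell types set the scale: 13 to 14 of 14 AΦ markers were called higher and 14 of 14 monocyte markers lower in each comparison. Of 8 interstitial macrophage markers, TR-AΦ had 2 called lower at 4 weeks and 8 at 32 weeks, and BM-AΦ had 4. In CD45.2 monocytes of 32 weeks their sum was 1254 to 3870 FPKM, beside 1863 to 4260 for monocyte markers. Their part in the differences of the members, Egr1 among them, was not tested.

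Junb, which pairs with Fos proteins and restrains Jun, was the only member whose AΦ and monocyte libraries did not overlap. How many of all genes separated the types in this way was not counted, so the separation has no background. Over all 18 AΦ libraries Junb ran from 323 to 653 FPKM with a median of 446, and over all 18 monocyte libraries from 768 to 1687 with a median of 987. It was lower in AΦ by 1.97-fold at 4 weeks (−0.98, SE 0.19, adjusted p = 0.000138, limma), by 2.80-fold between CD45.2 cells at 32 weeks (−1.49, SE 0.19, adjusted p = 3.61e-07, limma) and by 2.18-fold between CD45.1 cells (−1.12, SE 0.19, adjusted p = 2.38e-05, limma). Fosl2 ran from 131 to 276 FPKM with a median of 170 in AΦ and from 260 to 648 with a median of 377 in monocytes, so that the types nearly separated. Its differences were −0.84, −1.21 and −1.34 with an SE of 0.18 and adjusted p of 0.000323, 2.61e-06 and 5.29e-07 (limma).

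Fos had the highest median of the Fos family in both types, 502 FPKM in AΦ and 888 in monocytes, and was called lower in TR-AΦ at 4 weeks (−1.08, adjusted p = 0.000339, limma) and at 32 weeks (−0.70, adjusted p = 0.015, limma), but not in BM-AΦ (−0.36, adjusted p = 0.208, limma). The 32-week call was lost without TR-AΦ FA replicate 1 (adjusted p = 0.0674, limma) or monocyte FA replicate 1 (0.0534), and also with quantile normalization (0.228) and with libraries rescaled to equal totals (0.0949). BM-AΦ passed without FA replicate 0 (−0.57, adjusted p = 0.0337, limma). Fosb ran from 166 to 551 FPKM in AΦ and from 111 to 576 in monocytes, with differences of 0.28, 0.11 and 0.35 that did not pass, except the last without CD45.1 monocyte FA replicate 0 (0.70, adjusted p = 0.0416, limma). Jun and Jund did not pass in the 3 comparisons in the main fit, which has no replicate block. Jun was at 0.35, −0.81 and −0.34 with an SE of 0.41, and Jund at −0.63, −0.67 and −0.60 with an SE of 0.37. With a replicate block within time point Jund passed in all 3 (adjusted p = 0.0179, 0.0124 and 0.0228, limma). With that block Jun passed between CD45.2 cells at 32 weeks (adjusted p = 0.0244, limma). Between CD45.2 cells at 32 weeks both passed without TR-AΦ FA replicate 0 (Jun −1.09, adjusted p = 0.0316, and Jund −0.93, adjusted p = 0.0429, limma), and Jun also without monocyte FA replicate 2 (−1.06, adjusted p = 0.0387). At 4 weeks Jund passed in a fit of only the groups compared (adjusted p = 0.0479). Atf3, a bZIP partner of Jun that dampens cytokine genes, was at −1.02 (adjusted p = 0.031), −0.94 (0.0464) and −0.75 (0.11, limma). Its first call was lost when each of 6 of 12 libraries was left out (adjusted p up to 0.0741), its second when each of 7 of 12 was (up to 0.178), both were lost without a filter, with quantile normalization (0.217 and 0.0658) and with rescaled libraries, the second also in a fit of only the groups compared (0.0749), and the third difference passed without BM-AΦ FA replicate 0 (−0.98, adjusted p = 0.0433, limma).

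Egr1 turned its sign between the time points, higher in TR-AΦ than in monocytes by 1.88-fold at 4 weeks (0.91, SE 0.32, adjusted p = 0.0197, limma) and lower by 3.57-fold at 32 weeks (−1.84, SE 0.32, adjusted p = 2.45e-05, limma). The 6 TR-AΦ libraries of 4 weeks (666 to 986 FPKM) lay above the 6 monocyte libraries (247 to 626), and at 32 weeks they (59.7 to 225) lay below them (278 to 624). The 4-week call was lost without FA monocyte replicate 1 (adjusted p = 0.0568, limma). In BM-AΦ Egr1 was at −0.45 (adjusted p = 0.253, limma). Ier2 was at −0.17 at 4 weeks (adjusted p = 0.501, limma), −0.94 between CD45.2 cells (0.00031) and −0.75 between CD45.1 cells at 32 weeks (0.00249). Ier3, which counters cell death, was lower in AΦ in all 3 comparisons, by 2.54-fold (−1.34, adjusted p = 0.00149), 3.5-fold (−1.81, 5.91e-05) and 1.98-fold (−0.98, 0.0158, limma), with 37.1 to 141 FPKM over all AΦ and 85.9 to 465 over all monocytes. The last of these calls was lost without BM-AΦ FA replicate 1 (adjusted p = 0.0524, limma) or CD45.1 monocyte FA replicate 2 (0.0647). With libraries rescaled to equal totals the CD45.1 calls of Ier3 (adjusted p = 0.138, limma) and Ier2 (adjusted p = 0.187, limma) were lost. Rescaling libraries to equal totals took the median difference of all genes from −0.02, 0.0 and 0.03 to 0.21, 0.15 and 0.36 in the 3 comparisons, took the share of calls that were lower in AΦ from 53.0%, 50.1% and 46.8% to 33.1%, 38.3% and 25.2%, and left 4 members lower and 1 higher, 5 lower, and 2 lower.

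**Figure D4:**
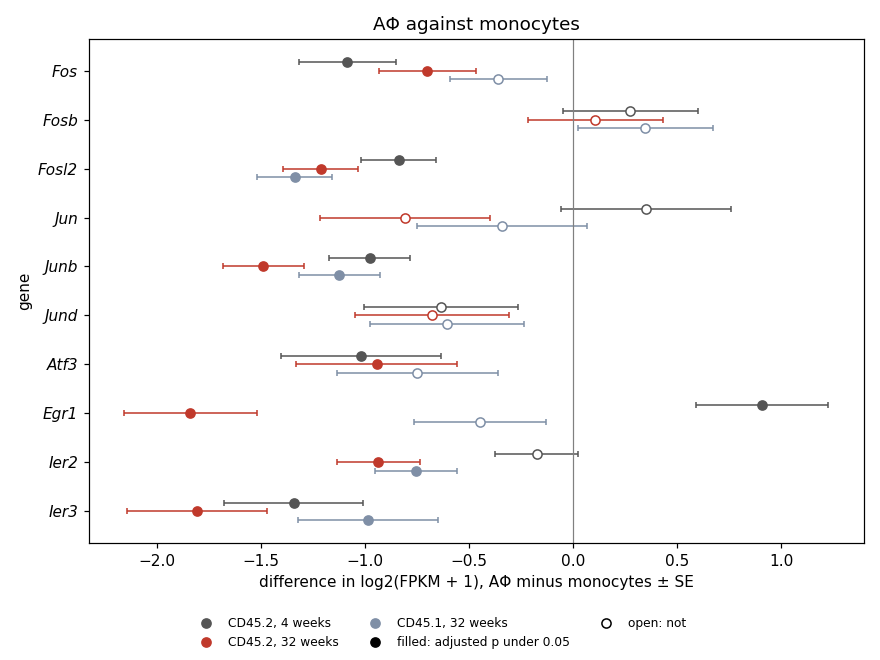
Difference in log2(FPKM + 1) between AΦ and monocytes (x axis, AΦ minus monocytes, ± SE) for each member (y axis), in CD45.2 cells at 4 weeks, CD45.2 cells at 32 weeks and CD45.1 cells at 32 weeks, with filled symbols for an adjusted p under 0.05. Fosl2, Junb and Ier3 are filled and negative in all 3, and Egr1 lies at 0.91 at 4 weeks and at −1.84 and −0.45 at 32 weeks.

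The other genes of the pathway differed between the cell types in both directions, and these counts stand beside the same shares of all genes. Of 30 early and feedback genes 18, 23 and 20 were lower in AΦ in the 3 comparisons and 3 higher in each, with Dusp2, a nuclear phosphatase that inactivates MAP kinases, at −4.28, −5.03 and −3.63. Of 14 other AP-1 family genes 7, 7 and 6 were lower and 2, 2 and 3 higher, with Maf, a bZIP factor of macrophages, at −1.95, −4.69 and −3.10. The CD45.2 monocytes of 32 weeks held 1254 to 3870 FPKM of the interstitial macrophage markers, and the part of these cells in the Maf differences was not tested. Of 21 upstream genes 12, 10 and 10 were lower, such as the kinase gene Map3k1 at −2.11, −1.71 and −1.90, and 4 were higher in each, such as the ERK1 gene Mapk3 at 1.10, 1.34 and 1.51. The 18 AP-1 targets split, with 6, 8 and 7 lower and 5, 3 and 5 higher. Among them Spp1, which encodes osteopontin, was higher in AΦ (4.94, 3.80 and 5.32) and the angiogenic factor gene Vegfa lower (−3.42, −2.95 and −2.44).

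The effect of PM2.5 against FA was tested in 6 pairs of groups, and no member passed in any of them. In TR-AΦ at 4 weeks the 10 differences ran from −0.19 (Fosb) to 0.46 (Jun), in TR-AΦ at 32 weeks from −0.53 (Egr1) to 0.01 (Fosl2), and in BM-AΦ from −0.58 (Atf3) to −0.04 (Ier2). In CD45.2 monocytes they ran from −0.13 (Jund) to 0.67 (Egr1) at 4 weeks and from −0.97 (Ier3) to 0.18 (Ier2) at 32 weeks, and in CD45.1 monocytes from −1.24 (Ier3) to 0.35 (Ier2). The SE was 0.18 to 0.54 in AΦ and 0.28 to 0.58 in monocytes. The share of all genes called was also small: 0.0079%, 0.0% and 0.0158% in the 3 AΦ comparisons and 0.00778%, 0.0% and 0.0% in the 3 monocyte comparisons (limma). At an unadjusted p under 0.05 there were 259 to 609 genes in each, and Ier3 in CD45.1 monocytes was the 1 member among them.

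In CD45.2 monocytes at 4 weeks the FA and PM2.5 libraries did not overlap for 3 members, Fos, Egr1 and Ier3. For each of them the exact two-sided permutation test gave p = 0.1, the smallest possible with 3 against 3 libraries. How many of all genes lacked overlap in this pair was not counted, so the 3 members have no background. Fos had 768, 544 and 961 FPKM under FA and 1222, 1047 and 1042 under PM2.5 (0.58, SE 0.28), Egr1 had 434, 247 and 367 against 626, 553 and 458 (0.67, SE 0.39), and Ier3 had 190, 182 and 166 against 393, 240 and 235 (0.65, SE 0.48). The adjusted p was 1 for each (limma). Ier3 in CD45.1 monocytes had 101, 251 and 414 FPKM under FA and 85.9, 102 and 89.1 under PM2.5, with an overlap of 1 FA library (−1.24, SE 0.48, adjusted p = 0.946, limma). In CD45.2 monocytes at 32 weeks Ier3 had 387, 132 and 465 FPKM under FA and 156, 177 and 113 under PM2.5, again with 1 FA library inside the PM2.5 range. The spread of Ier3 among FA libraries was thus wider than among PM2.5 libraries in both.

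Origin was compared at 32 weeks over both exposures. BM-AΦ and TR-AΦ had nearly equal levels: the 10 differences, BM-AΦ minus TR-AΦ, ran from −0.16 (Jun) to 0.30 (Ier3), the smallest adjusted p was 0.92 (Junb, limma), and SEs were 0.13 to 0.38. Egr1 ran from 69.0 to 243 FPKM in BM-AΦ and from 59.7 to 225 in TR-AΦ, and Ier2 from 92.3 to 154 and from 92.7 to 140. In both genes the BM-AΦ libraries of 32 weeks lay below every TR-AΦ library of 4 weeks, a contrast that differs in origin and in time and was not tested. Of all genes 0.316% were called between the origins (40 of 12665), 944 had an unadjusted p under 0.05, and none of these was a member. This fit did not pair libraries by replicate number, and no member was called with replicate blocks either. The effect of PM2.5 was not shown to differ by origin for any member (differences of the differences −0.30 to 0.28, SEs 0.26 to 0.76, smallest adjusted p 1, limma). In that test 0.0158% of genes were called and 240 genes, no member among them, had an unadjusted p under 0.05.

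Between monocytes of the 2 origins no member passed either, while 0.669% of genes were called and 1233 had an unadjusted p under 0.05. Egr1 came closest, with 327, 131, 131, 202, 246 and 183 FPKM in CD45.1 monocytes against 624, 534, 278, 333, 608 and 312 in CD45.2 monocytes, a small overlap (−1.14, SE 0.28, adjusted p = 0.104, limma). It passed without CD45.1 FA replicate 0 (adjusted p = 0.0226, limma) and without CD45.2 FA replicate 2 (adjusted p = 0.0356, limma). The interstitial macrophage marker sum was 664 to 1394 FPKM in CD45.1 and 1254 to 3870 in CD45.2 monocytes, and its part in this was not tested. The other members lay between −0.63 (Jun) and 0.10 (Fosl2).

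Within the 32-week FA groups single libraries stood apart in the same genes. In TR-AΦ replicate 0 held 1051 FPKM of Fos, 440 of Fosb, 595 of Jun, 762 of Jund and 152 of Atf3, while replicates 1 and 2 held 395 and 668 of Fos, 179 and 313 of Fosb, 181 and 181 of Jun, 262 and 267 of Jund and 76.5 and 115 of Atf3. BM-AΦ replicate 0 held 1239, 551, 566, 675 and 232 FPKM of the same 5 genes in that order. In CD45.1 monocytes replicate 0 was again highest, with 1164, 576, 749, 1063 and 411 FPKM. In CD45.2 monocytes it was replicate 1, with 1442 FPKM of Fos, 522 of Fosb, 866 of Jun and 455 of Atf3, while Jund was highest in replicate 0 (682) and then in replicate 1 (661). Fosl2 and Ier3 did not follow, and both were highest in replicate 2 in all 4 populations under FA. Junb was highest in replicate 2 in TR-AΦ (548 FPKM, against 335 in replicate 0 and 368 in replicate 1) and in BM-AΦ. Egr1 was highest in replicate 2 in TR-AΦ. In CD45.2 monocytes Junb, Egr1 and Ier2 were highest in replicate 0 and not in replicate 1.

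TR-AΦ and BM-AΦ of the same replicate number were close library by library. Under FA the 3 numbers ranked alike in both origins for 6 of 10 members and the same number was highest for 9, and the ratio of TR-AΦ to BM-AΦ within a number was 0.648 to 1.27 with a median of 0.997. Under PM2.5 the counts were 8 and 8 of 10 and the ratio 0.72 to 1.26 with a median of 0.983. These counts were not made over all genes, so whether the closeness is particular to the members is not known. Over all genes tested, deviations from the group means correlated between same numbers at 0.044 to 0.063 under FA and −0.023 to 0.045 under PM2.5. Several members moved together in single libraries, so the counts are not of independent genes. Whether a number marks one mouse was not known here. The heat shock sum was also highest in these FA libraries: it was 1397 FPKM in TR-AΦ replicate 0 against 927 and 1022, 1638 in BM-AΦ replicate 0 against 945 and 986, 1386 in CD45.1 monocyte replicate 0 against 883 and 1219, and 1513 in CD45.2 monocyte replicate 1 against 927 and 1184. Under PM2.5 replicate 1 held the highest heat shock sum in all 4 populations (1463 FPKM against 779 and 870 in TR-AΦ, 1602 against 812 and 948 in BM-AΦ), and Fosb and Atf3 were highest in that replicate in all 4, while Fos, Jun and Jund of TR-AΦ and BM-AΦ were highest in replicate 0, which held the lowest heat shock sum. The part of the heat shock sum in these levels was not tested.

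**Figure D5:**
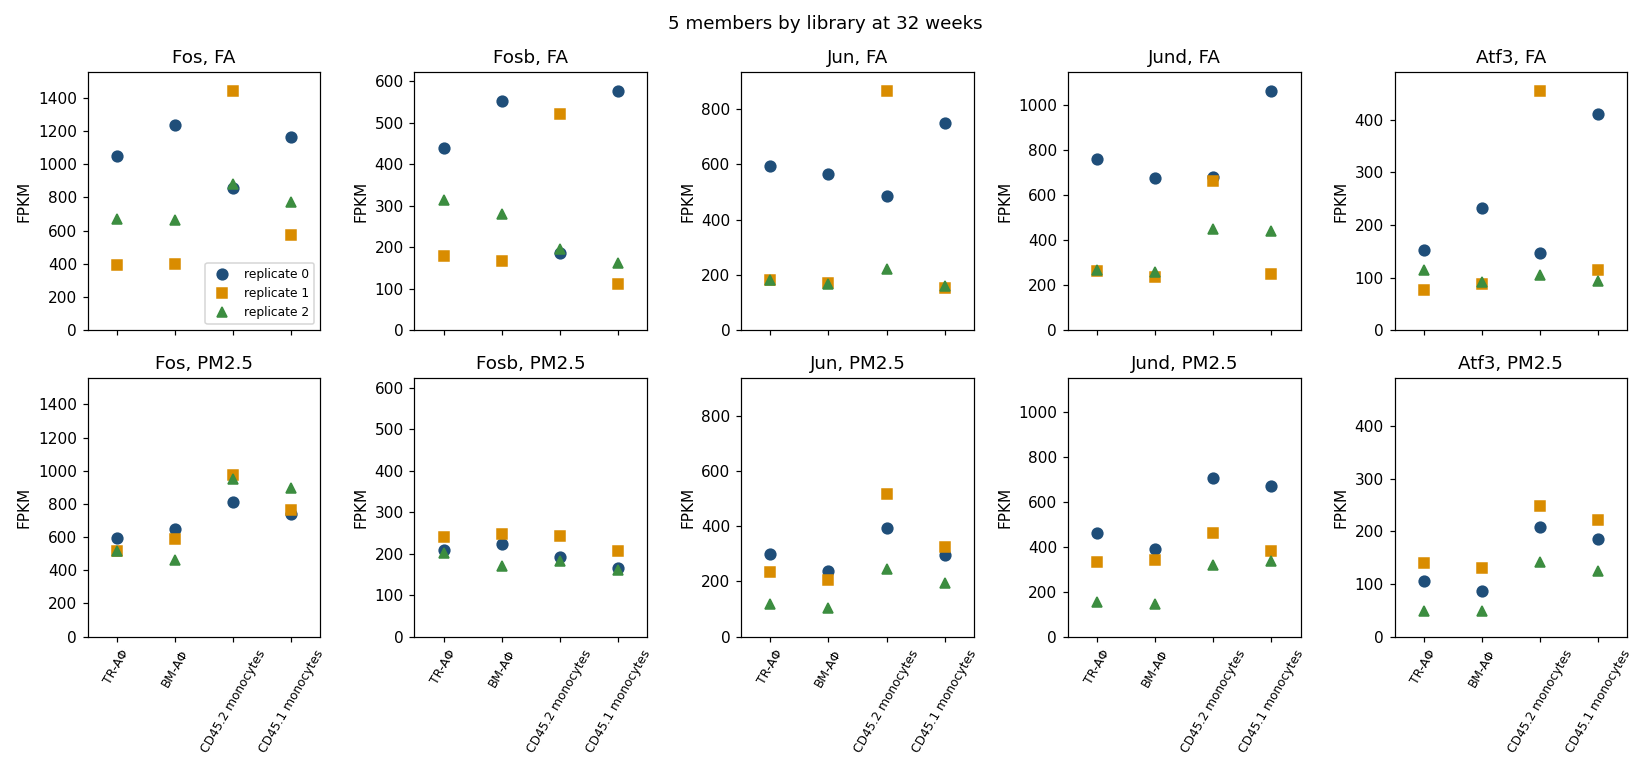
Levels in FPKM (y axis) of Fos, Fosb, Jun, Jund and Atf3 in each 32-week library by population (x axis), FA in the upper and PM2.5 in the lower row, with a colour and marker for each replicate number. Replicate 0 is highest for all 5 genes under FA in TR-AΦ, BM-AΦ and CD45.1 monocytes, replicate 1 is highest for 4 of the 5 genes in CD45.2 monocytes, and the highest PM2.5 library is below the highest FA library in each population for Fos, Fosb and Jun.

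The genes whose pattern was most like that of the members were found over all 36 libraries, with each gene centred within its cell type and compared with the members' mean among 13297 genes. Zfp36, which encodes a protein that destabilises AU-rich mRNAs, had Pearson r = 0.832, Cited2, a CBP/p300-binding regulator, 0.812, Ier5, an immediate early response gene, 0.809, the inducible chaperone gene Hspa1a 0.804 and Phlda1, an early response gene, 0.80. The libraries share time points, hosts and handling, so these values describe likeness in this set of samples. Hspa1a has a near-identical copy, Hspa1b, and its level depends on how shared reads were divided.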

How the data were processed

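The authors trimmed reads with TrimGalore, aligned them to mm10 with STAR and made gene-level FPKM with Cufflinks (per the labels, with Cuffdiff). The deposited FPKM table was used as it stands; counts were not analysed here. FPKM were set to log2(FPKM + 1) and genes averaging 1 FPKM or more over a model's libraries were tested with limma 3.58.1 (R 4.3.3, trended variance, 1 mean per group): 12665 genes in the AΦ model, 12856 in the monocyte model and 13307 in the model of both. Adjusted p is Benjamini-Hochberg over all genes of a comparison, with a threshold of 0.05, in 18 comparisons. Fold changes on this scale slightly understate changes of low genes. Replicates carry numbers 0, 1 and 2. Libraries, hence p-values, rest on 3 samples a group, and the depth of each library is unknown.

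All 10 members were named in every group. From each other list, counts were given with up to 4 genes per comparison of smallest adjusted p, and the 5 genes most like the members' mean by Pearson r. The members and lists were chosen with earlier results of these data known. Alternatives were a pseudocount of 0.1, no filter, quantile normalization, equal totals, a fit of only the groups compared, replicate blocks and leaving out libraries. The fit was tested on simulated data. Exact permutation tests used scipy 1.17.1, and figures matplotlib 3.10.9.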

Additional observations from a re-analysis of the deposited data

Results flagged for a closer look

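The change of Egr1 between 4 and 32 weeks differed between TR-AΦ and CD45.2 monocytes by −2.75 on the log2(FPKM + 1) scale (SE 0.45, adjusted p = 0.00026, limma interaction term). In TR-AΦ all 6 libraries of 32 weeks lay below all 6 of 4 weeks, and in monocytes the ranges of the time points overlapped. Groups of 3 libraries were not tested for single samples that stand apart.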

How the results depend on the processing

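No called difference of a member reversed under any alternative. In TR-AΦ of FA mice the count of 2 members called between time points became 1 without a filter on low values and 1 with libraries rescaled to equal totals, where Egr1 had adjusted p of 0.0592 and 0.0524, and 0 in a fit of only the groups compared (Egr1 0.289, Ier2 0.0651). In that last fit 15 genes were called in place of 99, and in PM2.5 mice 18 in place of 133 with 1 member in place of 2 (Ier2 0.0937). Between BM-AΦ and CD45.1 monocytes 2 in place of 4 members were called with rescaled libraries. For the difference of time changes between cell types 2 in place of 1 were called with quantile normalization. Leaving out a library gave 1 to 2 members in TR-AΦ of FA mice, 2 to 2 in PM2.5 mice, 0 to 1 for the origin of monocytes, 5 to 6, 5 to 9 and 3 to 6 for the 3 comparisons of AΦ with monocytes, and 1 to 2 for time by cell type. The counts over all genes that serve as background moved more: rescaled libraries gave 83 in place of 133 genes in TR-AΦ of PM2.5 mice between time points (89.2% in place of 74.4% of them lower), 80.4% in place of 55.2% lower for time by cell type and 27.7% in place of 56.6% lower in monocytes of FA mice between time points, where the median of all genes moved from −0.05 to 0.12. A fit of only the groups compared gave 270 in place of 927 and 15 in place of 311 genes in monocytes between time points and 78 in place of 40 between BM-AΦ and TR-AΦ. No filter gave 62 in place of 40 there and 149 in place of 86 between monocytes of the 2 origins. The 6 comparisons of PM2.5 with FA had 0 to 2 genes called as reported and 0 to 11 under the alternatives, with up to 37 without the libraries of highest Jun. Without the 4 libraries of highest Jun at 32 weeks, an alternative added after the data were seen and chosen by the level of a member, Ier3 was called in CD45.1 monocytes between PM2.5 and FA (1 member in place of 0, −1.80, adjusted p = 0.0296, limma) and in CD45.2 monocytes between time points under FA (1 in place of 0, 1.24, adjusted p = 0.0223).

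Over all genes tested, same-numbered libraries did not correlate above 0.1 in every pair of any comparison, so the main fits did not pair samples by number. This does not show that numbers mark different mice, and the members of TR-AΦ and BM-AΦ ran close by number. With a replicate block, 2 in place of 1 members were called for time by cell type (1648 in place of 1049 genes), and Jund in all 3 comparisons of AΦ with monocytes (adjusted p 0.0179, 0.0124 and 0.0228) and Jun in CD45.2 cells at 32 weeks (0.0244) passed. Blocks gave 22 and 93 in place of 40 genes between BM-AΦ and TR-AΦ and 132 and 146 in place of 86 between monocytes of the 2 origins, with no member called. With a block of the number over both time points, added after the data were seen, 1 member in place of 0 was called in monocytes of FA mice (Ier2, adjusted p = 0.024), and genes called between time points were 197 in place of 99, 381 in place of 133, 1473 in place of 927 and 618 in place of 311. A block within time point could not be fitted beside a difference between time points and was not run there. Of the called differences of single members, 229 of 252 values without 1 library and 146 of 163 under the other alternatives kept direction and side of the threshold, and the rest kept direction. The depth of each library is unknown, so what it limits cannot be given.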
